A study of Mus musculus with 18 samples.

Results

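The genes described here are 9 chemokine receptors, Ccr2, Ccr4, Ccr8, Ccr9, Cxcr3, Cxcr4, Cxcr5, Cxcr6 and Cx3cr1, of 18194 genes measured in activated mouse CD8+ T cells. The 9 were taken by name, without Ccr7, and each was read from the probe set of highest mean level over the 18 arrays, here called its main probe set. The cells came from spleens of male OT-I Thy1.1 TCR Tg mice, whose CD8+ T cells carry a single transgenic receptor for an ovalbumin peptide. Naive OT-I cells were primed for 48 hours on peptide-loaded, irradiated splenocytes of wild-type C57BL/6 mice, enriched for viable cells on a density gradient and cultured for a further 24 hours. The 6 groups, with 3 biological replicates each, were IL-21, IL-15, IL-7, IL-4 and IL-2, each recombinant murine cytokine at 100 ng/ml, and Media Control, in which the same primed cells received no cytokine. Priming, the transgenic receptor and the irradiated splenocytes were thus shared by all groups, ages of the mice were not given, and any stimulator cells left after the gradient would be in every sample.

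Chemokine receptors are G protein-coupled receptors that steer T cells along gradients of chemokines, coupling mainly through Gi proteins. Priming in lymphoid tissue is followed by a change of receptors, from those that hold a T cell near the T and B cell zones to those that guide it to inflamed sites, skin, gut or liver. The cytokines compared here share the common gamma chain as a receptor subunit and signal through Janus kinases. STAT5 is the main factor downstream of IL-2, IL-7 and IL-15, STAT6 downstream of IL-4 and STAT3 downstream of IL-21. Of the 9 receptor genes 7 lie on chromosome 9, while Cxcr3 lies on the X chromosome and Cxcr4 on chromosome 1, and Cx3cr1 and Ccr8 are neighbours in the RefSeq annotation of GRCm38.p6.

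RNA was hybridised to 18 Affymetrix 3' expression arrays of the mouse genome, and levels are quantile-normalised log2 values, on which a difference of 1 stands for a fold of 2. As deposited, replicate 3 of IL-2, IL-15 and Media Control lay on a lower scale, with medians of 4.47 to 4.52 against 5.76 to 5.84 on the other 15 arrays. On the same values as deposited, those 3 arrays had the largest Actb difference between 3' and 5' probe sets, which can mark RNA quality. It was 0.59 to 0.68 on the log2 scale, against 0.37 to 0.39 on the other replicate 3 arrays and 0.19 to 0.31 on replicates 1 and 2. Whether RNA quality or the lower scale gave the larger difference was not tested, nor was its part in the results. A background level of 6.70 was set from 33 genes of other tissues, and the size of a change to or from a level below it is not exact. All 9 T cell identity genes measured, Cd8a, Cd8b1 and Cd3e among them, lay above background in each group. Of the CD4 T cell markers, Cd4, Foxp3 and Cd40lg lay below it in each group. Zbtb7b, on the same list, lay above it in all 6, with group means of 7.25 to 7.67. Of the 9 T cell identity genes, the number lower than in Media Control was 1 with IL-21, 1 with IL-7, 3 with IL-4 and 6 with IL-2, and with the replicate number as a block it was 3, 4, 5 and 7, with 1 higher with IL-21 and 1 with IL-4. Of all genes 6.67%, 1.68%, 9.07% and 15.8% passed in the same order, and 21.1%, 16.3%, 25.8% and 30.6% with the block. No CD4 T cell or red cell marker passed against Media Control, and of 7 dendritic cell markers only Itgax did, lower with IL-2 (-1.42, adjusted p = 0.0098), and not without Media Control replicate 2 (0.0639). With the block 1 of the 7 was lower under IL-7, IL-4 and IL-2 each. RNA of replicate 3 came from TRIzol and Direct-zol, that of replicates 1 and 2 from RNeasy, so extraction and replicate 3 cannot be told apart. In these bulk samples, fewer cells carrying a transcript and less of it per cell cannot be told apart either.

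Against Media Control, Cxcr6 passed in both directions by cytokine, while Cxcr3, Cxcr5 and Ccr4 each kept the same direction wherever they passed. Cxcr3 and Cxcr5 fell with IL-4, IL-2 and IL-21, Cxcr5 also fell with IL-7, Cxcr6 fell with IL-2 and rose with IL-21, and Ccr4 rose with IL-2 and IL-4. Ccr2, by the probe set of highest mean, passed in no comparison with Media Control, yet its 3 other probe sets rose with IL-21 by up to 17.3-fold. With limma and Benjamini-Hochberg adjustment over all genes, 11 of the 45 tests of a receptor against Media Control passed the threshold of 0.05, 3 of them higher.

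Of the 9 receptors, 4 passed with IL-2, against 15.8% of all genes. For IL-4 there were 3, against 9.07% of all genes, and for IL-21 there were 3, against 6.67%. For IL-7 Cxcr5 alone passed, against 1.68% of all genes. With IL-15 none passed, as for 0% of all genes, and in limma 390 of the 18194 genes had an unadjusted p under 0.05, 1 receptor among them. The median change over the 9 receptors was -0.48 with IL-21, -0.07 with IL-15, -0.39 with IL-7, 0.16 with IL-4 and -0.25 with IL-2, while the median over all genes lay between -0.02 and 0.01. These comparisons share the Media Control arrays. The replicate number as a block, which leaves every change as it is, gave 16 calls of 45, and the added calls are given with each gene. With it the calls over all genes rose too. Against 30.6% of all genes 5 receptors passed with IL-2, against 25.8% there were 4 with IL-4, against 21.1% 5 with IL-21, against 16.3% 2 with IL-7, and none of either with IL-15. On the values as deposited, without rescaling the 3 lower arrays, 3 of the 45 tests passed, and 11 with the block.

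**Figure D1:**
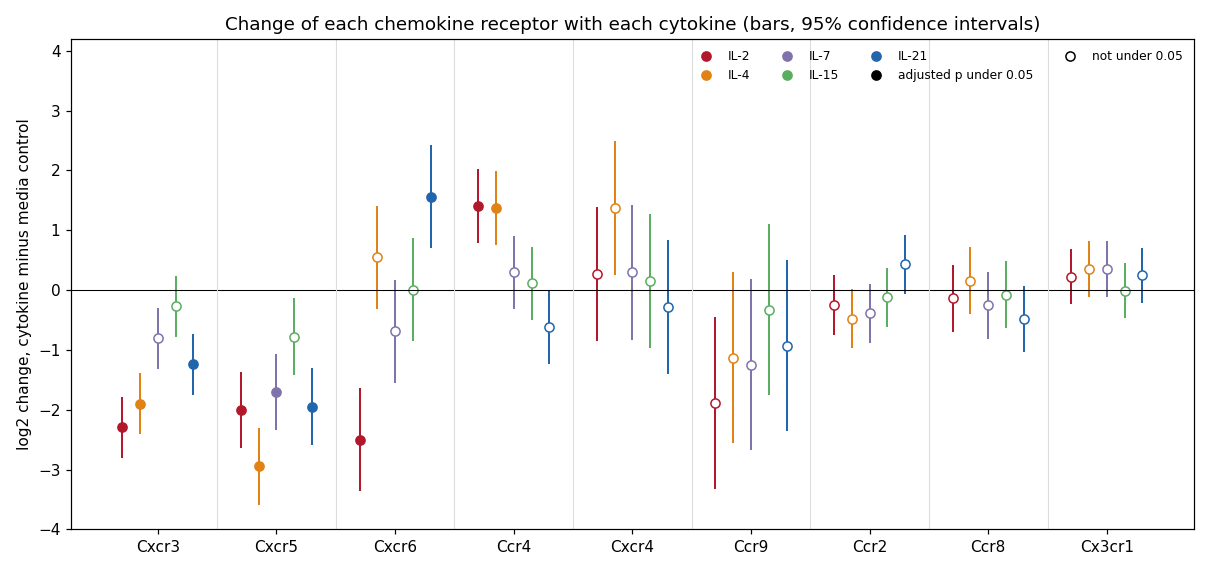
Log2 change of each receptor's main probe set with each cytokine minus Media Control, with 95% confidence intervals from limma (n = 3 arrays a group); filled points had an adjusted p under 0.05. Cxcr3 and Cxcr5 lie below 0 with every cytokine, Cxcr6 lies on both sides, from -2.50 with IL-2 to 1.56 with IL-21, and Ccr4 lies at 1.40 and 1.38 with IL-2 and IL-4.

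**Figure D2:**
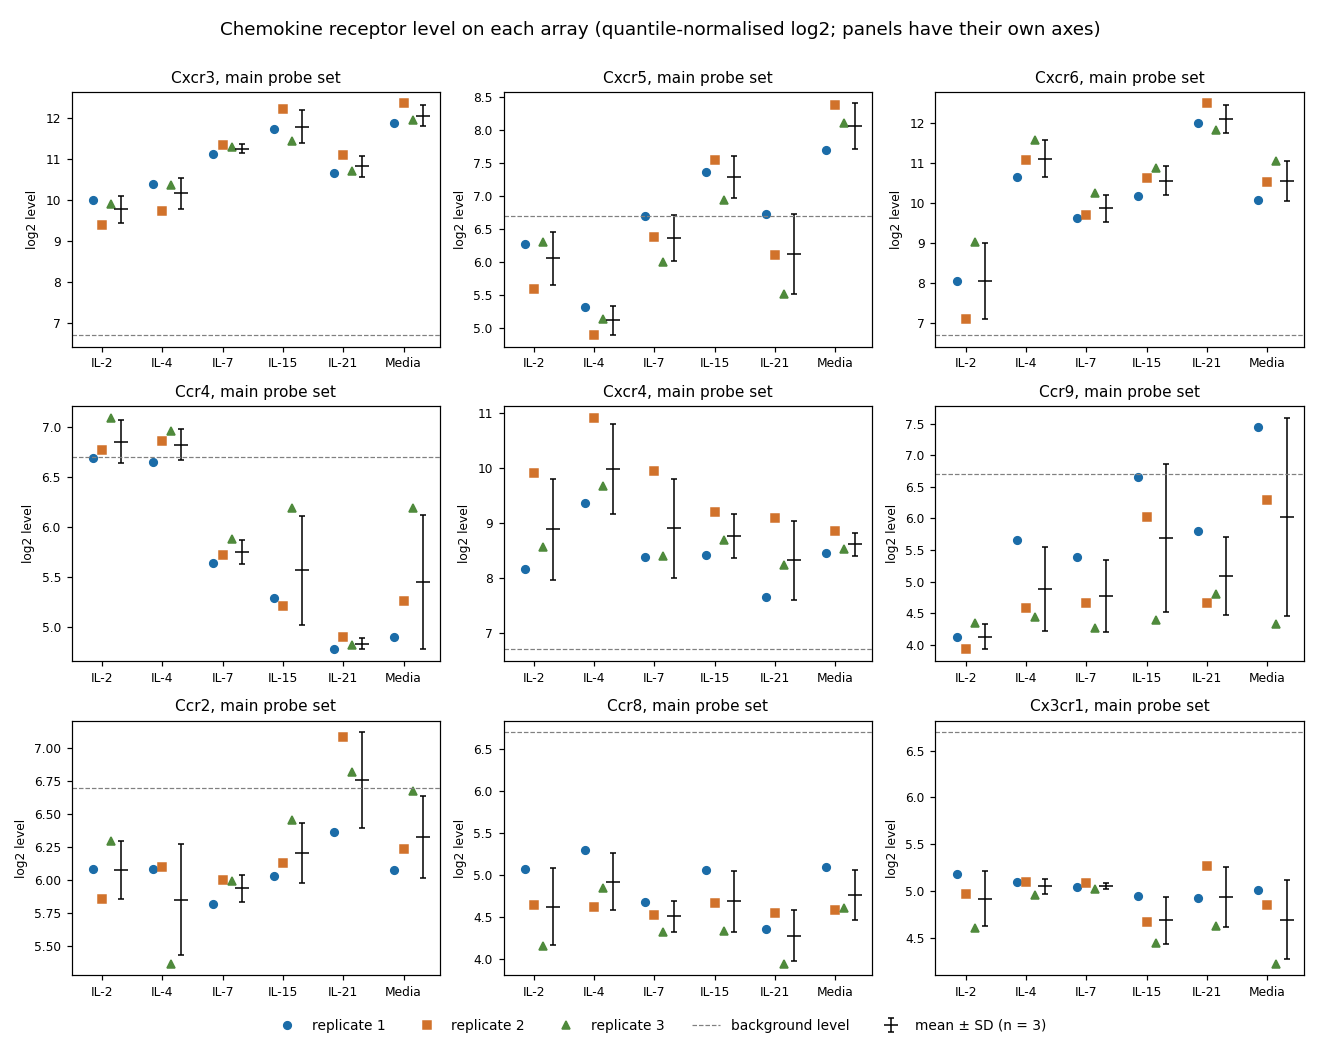
Normalised log2 level of the 9 receptors on each array by group; points are arrays, shaped by replicate number, black bars the mean and SD of 3 arrays, and the dashed line the background level of 6.70. Cxcr3, Cxcr4 and Cxcr6 lie above background on all 18 arrays, and Ccr8 and Cx3cr1 on none; the vertical axes differ between panels.

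Promoter sequences are shown for the 4 receptors with a promoter at hand that rose or fell against Media Control in some probe set, because members of a pathway that change invite a look at their start sites. The RefSeq table (GRCm38.p6, 250 bases before to 50 after the start) held 8 of the 9, all but Cxcr5. Each was searched on both strands for TTCNNNGAA (STAT5 and STAT3) and for the STAT6 motif, which has 1 more base N in its middle. The letters AGATAA, bound by GATA factors, were searched likewise. So was the T-box core GGTGTG. None of the 8 held either STAT motif, which 8.3% and 6.95% of 32851 promoters of the same length held. AGATAA was in 2 of the 8, Ccr2 at position -97 and Ccr8 at position -239, both on the opposite strand, against 11.2% of all promoters. GGTGTG was in 1, Ccr9 at position -13, against 19.0%. Positions count from the start, the base before it being -1. A match is a description of the letters only. Capitals mark motif letters, and Ccr4, Cxcr3 and Cxcr6 have none.
Ccr2 (chr9:124101933-124102232, plus strand): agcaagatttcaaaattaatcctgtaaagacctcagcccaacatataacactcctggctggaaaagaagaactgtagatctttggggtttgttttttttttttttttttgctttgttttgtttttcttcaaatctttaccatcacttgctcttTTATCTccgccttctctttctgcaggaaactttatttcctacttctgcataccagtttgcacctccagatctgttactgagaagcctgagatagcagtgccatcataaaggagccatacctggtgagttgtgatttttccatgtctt
Ccr4 (chr9:114496495-114496794, minus strand): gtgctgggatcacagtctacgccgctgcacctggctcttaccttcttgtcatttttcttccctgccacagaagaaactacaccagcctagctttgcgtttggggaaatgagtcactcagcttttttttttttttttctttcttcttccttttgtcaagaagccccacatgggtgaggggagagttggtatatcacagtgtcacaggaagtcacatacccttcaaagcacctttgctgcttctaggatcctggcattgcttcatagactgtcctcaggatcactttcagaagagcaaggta
Cxcr3 (chrX:101734098-101734397, minus strand): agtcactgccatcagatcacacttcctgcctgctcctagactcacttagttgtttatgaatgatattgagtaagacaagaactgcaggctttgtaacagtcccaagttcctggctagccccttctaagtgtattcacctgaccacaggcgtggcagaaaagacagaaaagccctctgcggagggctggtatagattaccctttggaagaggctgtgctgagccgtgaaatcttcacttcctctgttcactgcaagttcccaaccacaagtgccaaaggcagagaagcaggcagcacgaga
Cxcr6 (chr9:123806227-123806526, plus strand): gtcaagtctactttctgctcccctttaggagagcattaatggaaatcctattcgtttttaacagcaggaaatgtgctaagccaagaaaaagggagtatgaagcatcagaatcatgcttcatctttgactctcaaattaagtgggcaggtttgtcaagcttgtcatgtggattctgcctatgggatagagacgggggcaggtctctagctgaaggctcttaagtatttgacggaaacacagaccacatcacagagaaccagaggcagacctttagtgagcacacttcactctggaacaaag

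Cxcr3, the receptor for CXCL9 and CXCL10 that takes effector T cells into inflamed tissue, had a main probe set well above background in every group. Its levels on the 3 arrays were 10.0015, 9.39 and 9.91 under IL-2, 10.38, 9.72 and 10.36 under IL-4, 11.13, 11.35 and 11.28 under IL-7, 11.73, 12.21 and 11.43 under IL-15, 10.65, 11.11 and 10.70 under IL-21, and 11.87, 12.36 and 11.95 in Media Control. All arrays of IL-2, IL-4, IL-7 and IL-21 lay below all of Media Control, and IL-15 overlapped it. Cxcr3 fell by 2.29 with IL-2 (SE 0.23, 4.89-fold, adjusted p = 1.6e-05), fell by 1.90 with IL-4 (3.74-fold, adjusted p = 1.1e-04) and fell by 1.24 with IL-21 (2.36-fold, adjusted p = 0.0036), and each call held without any 1 array. For IL-7 the change was -0.80 (adjusted p = 0.0988, and 0.0300 with the replicate block), and with IL-15 it was -0.27 (95% confidence interval -0.76 to 0.23). Without the rescaling none of the 3 passed (adjusted p = 0.679 with IL-21, 0.473 with IL-4 and 0.0803 with IL-2). With the block on those values IL-2 and IL-4 passed and IL-21 did not (adjusted p = 0.355 with IL-21). In ascending order the groups ran IL-2, IL-4, IL-21, IL-7, IL-15 and Media Control, and no neighbours in that order differed past the threshold.

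Cxcr5, the CXCL13 receptor that draws lymphocytes to B cell follicles, was the receptor lowered by most cytokines. Its levels were 6.26, 5.59 and 6.30 under IL-2, 5.32, 4.89 and 5.13 under IL-4, 6.69, 6.38 and 6.00 under IL-7, 7.36, 7.55 and 6.93 under IL-15, 6.72, 6.10 and 5.51 under IL-21, and 7.69, 8.37 and 8.11 in Media Control. All 3 arrays of each cytokine lay below all 3 of Media Control. The arrays of IL-2, IL-4 and IL-7 lay below background, and only 1 of the 3 IL-21 arrays lay above it. It fell by 2.95 with IL-4 (SE 0.29, 7.71-fold, adjusted p = 2.2e-05), fell by 2.01 with IL-2 (4.02-fold, adjusted p = 2.6e-04) and fell by 1.95 with IL-21 (3.85-fold, adjusted p = 6.0e-04), calls that held without any 1 array. With IL-7 it fell by 1.70 (adjusted p = 0.0105), but not past the threshold without IL-7 replicate 2 or without Media Control replicate 2 (adjusted p = 0.0579 to 0.0620). With IL-15 the change was -0.78 (95% confidence interval -1.40 to -0.16, adjusted p = 1). On the values as deposited none of the 4 passed (adjusted p = 0.728 with IL-7, 0.615 with IL-21, 0.174 with IL-2 and 0.0628 with IL-4). With the block on those values all but IL-7 passed (adjusted p = 0.126 with IL-7). In ascending order the groups ran IL-4, IL-2, IL-21, IL-7, IL-15 and Media Control, and no neighbours differed past the threshold, except IL-2 and IL-4 with the replicate block (adjusted p = 0.0374).

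Markers of B cells, which express Cxcr5, moved in the same direction. The summed log2 level of the 11 B cell markers measured, of 12 listed, was 56.3 to 59.9 under IL-2, 58.4 to 58.8 under IL-4, 57.3 to 58.5 under IL-7, 59.7 to 61.5 under IL-15, 58.2 to 59.2 under IL-21 and 62.0 to 65.1 in Media Control, so that each cytokine's arrays lay below those of Media Control. Cd79a, Ms4a1, Pax5 and Ebf1 lay below background in every group, while Cd79b lay above it in 5 groups and the MHC class II invariant chain Cd74 in all 6. With limma 4 of the 11 fell with IL-2, 3 with IL-7, 2 with IL-21, 1 with IL-4 and none with IL-15. Of all genes 15.8%, 1.68%, 6.67%, 9.07% and 0% passed in either direction, in the same order. With the block 4 fell with IL-2, 4 with IL-7, 4 with IL-21 and 2 with IL-4. Beside these stood 30.6%, 16.3%, 21.1% and 25.8% of all genes. Cd74 averaged 7.51 ± 0.30 with IL-2 and 9.82 ± 0.31 in Media Control (SD, n = 3 each) and fell by 2.31 (adjusted p = 4.4e-04, and 0.271 on the values as deposited). The part of B cells in the fall of Cxcr5 was not tested.

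**Figure D3:**
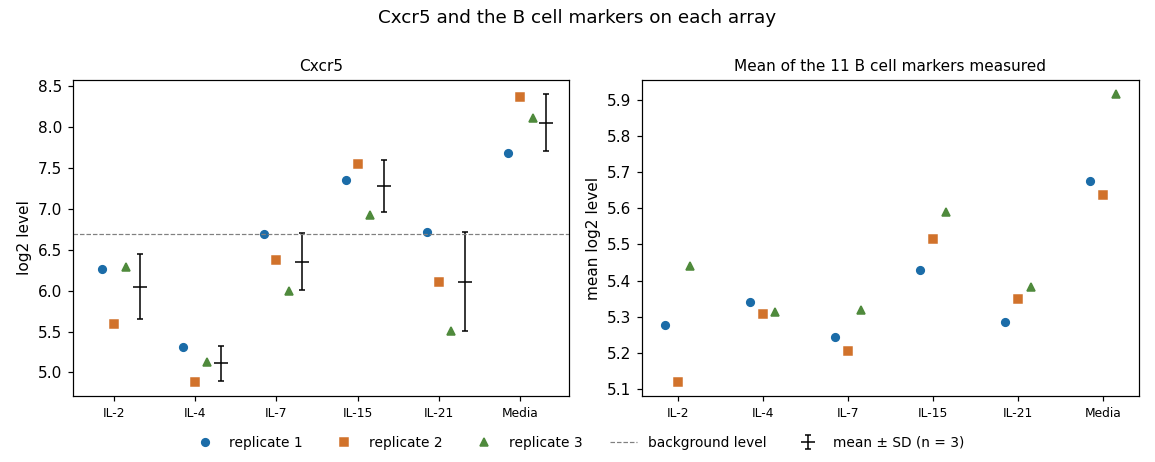
Left, log2 level of Cxcr5 on each array, with the mean and SD of 3 arrays and the background level of 6.70 dashed; right, mean log2 level of the 11 B cell markers measured on the same arrays. Both are higher on each Media Control array than on any cytokine array, and both are next highest with IL-15.

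Cxcr6, the receptor for CXCL16 found on effector and tissue-resident CD8+ T cells, differed most between cytokines among the main probe sets. Its levels were 8.04, 7.11 and 9.01 under IL-2, 10.65, 11.08 and 11.58 under IL-4, 9.64, 9.70 and 10.26 under IL-7, 10.16, 10.62 and 10.88 under IL-15, 12.01, 12.49 and 11.82 under IL-21, and 10.07, 10.53 and 11.05 in Media Control. The IL-2 arrays lay below and the IL-21 arrays above all arrays of Media Control, while the other 3 cytokines overlapped it. Cxcr6 fell by 2.50 with IL-2 (SE 0.40, 5.65-fold, adjusted p = 4.7e-04), also without any 1 array. It rose by 1.56 with IL-21 (SE 0.40, 2.94-fold, adjusted p = 0.0257), a call lost without IL-21 replicate 1 or 2 or Media Control replicate 1 or 2 (adjusted p = 0.0710 to 0.102). With IL-4 the change was 0.55 (95% confidence interval -0.29 to 1.39), with IL-7 -0.69 (-1.53 to 0.16) and with IL-15 0.00 (-0.84 to 0.85).

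A second Cxcr6 probe set, 1422812_at, moved alike. In a fit over all 34958 probe sets with 1 gene symbol it fell by 2.29 with IL-2 (adjusted p = 1.3e-04) and rose by 1.72 with IL-21 (adjusted p = 0.0024), both also without any 1 array. Its change with IL-4 was 0.75 (adjusted p = 0.165, and 0.0338 with the block). In ascending order the groups ran IL-2, IL-7, Media Control, IL-15, IL-4 and IL-21. Of neighbours in that order only IL-2 and IL-7 differed past the threshold, by -1.81 for IL-2 minus IL-7 (adjusted p = 0.0339), and this call was lost without any 1 of 5 arrays (adjusted p up to 0.159), IL-2 replicates 1 and 2 and each IL-7 replicate. Among NK cell markers, which the sample could also hold, Ncr1 and Klra8 lay below background in every group. Cd160 and Gzma lay above it in all 6 groups, and Klre1 in 4. The summed log2 level of the 5 NK cell markers measured, of 8 listed, was 30.2 to 31.2 with IL-2, 38.7 to 39.5 with IL-21 and 32.5 to 34.7 in Media Control, and their part in the change of Cxcr6 was not tested. That list holds the granzyme Gzma, which activated CD8+ T cells also make. It averaged 14.08 ± 0.46 with IL-21, 13.71 ± 0.22 with IL-4 and 8.84 ± 0.69 in Media Control (SD, n = 3 each). Gzma rose by 5.24 with IL-21 and by 4.87 with IL-4. Cd160 fell by 1.81 with IL-2 and by 1.17 with IL-4, and Klre1 fell by 1.22 with IL-4. Of the 5, 1 was lower with IL-2, 1 higher and 2 lower with IL-4 and 1 higher with IL-21, and with the block 2 were lower with IL-2, 1 was lower with IL-7, and 2 were higher and 1 lower with IL-21.

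Ccr4, the CCL17 and CCL22 receptor of skin-homing and type 2 T cells, rose with IL-2 and IL-4 to about the background level. Its levels were 6.69, 6.78 and 7.10 under IL-2, 6.66, 6.87 and 6.96 under IL-4, 5.64, 5.72 and 5.88 under IL-7, 5.29, 5.22 and 6.19 under IL-15, 4.78, 4.90 and 4.82 under IL-21, and 4.90, 5.26 and 6.19 in Media Control. All IL-2 and IL-4 arrays lay above all of Media Control, and 2 arrays in each of those groups were the only ones above background. Ccr4 rose by 1.40 with IL-2 (SE 0.28, 2.65-fold, adjusted p = 0.0026) and by 1.38 with IL-4 (2.60-fold, adjusted p = 0.0054), and both held without any 1 array. On the values as deposited the adjusted p with IL-2 was 0.0717, and IL-4 still passed. With the block on those values both passed. The change with IL-21 was -0.62 (adjusted p = 0.260, and 0.0379 with the replicate block), with IL-7 0.30 (95% confidence interval -0.30 to 0.89) and with IL-15 0.11 (-0.48 to 0.71). Without replicate 3 of IL-2, IL-15 and Media Control, the change with IL-7 was 0.67 (adjusted p = 0.0262) and that with IL-21 was -0.25 (adjusted p = 0.352). That setting keeps replicate 3 of IL-7 and IL-21. With replicate 3 left out of every group, the change with IL-7 was 0.60 (adjusted p = 0.0414), and IL-21 did not pass. IL-2 and IL-4 did not differ past the threshold (0.03 for IL-2 minus IL-4, 95% confidence interval -0.57 to 0.62).

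Cxcr4, the CXCL12 receptor that retains lymphocytes in bone marrow and lymphoid tissue, moved with the replicate number in every group. Its levels were 8.16, 9.91 and 8.57 under IL-2, 9.35, 10.91 and 9.68 under IL-4, 8.38, 9.94 and 8.39 under IL-7, 8.41, 9.19 and 8.68 under IL-15, 7.66, 9.08 and 8.23 under IL-21, and 8.46, 8.85 and 8.52 in Media Control. Replicate 2 was the highest in all 6 groups, and the IL-4 arrays alone all lay above those of Media Control. With IL-4 the change was 1.37 (SE 0.52, adjusted p = 0.127), which passed with the replicate block (SE 0.22, adjusted p = 3.8e-04). It was 0.15 with IL-15, 0.30 with IL-7, 0.27 with IL-2 and -0.29 with IL-21, and none of these passed in either fit. The residual SD was 0.71 without the block and 0.31 with it. Between cytokines, IL-4 minus IL-21 was 1.66, IL-4 minus IL-15 1.22, IL-4 minus IL-7 1.08 and IL-2 minus IL-4 -1.10, none of which passed without the block (adjusted p = 0.111 to 0.759), and all of which passed with it (1.2e-04 to 0.0085).

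Ccr9, the CCL25 receptor of gut-homing T cells and of thymocytes, was low, and its replicates lay far apart. Its main probe set read 4.12, 3.94 and 4.35 under IL-2, 5.66, 4.58 and 4.44 under IL-4, 5.39, 4.66 and 4.27 under IL-7, 6.66, 6.02 and 4.40 under IL-15, 5.797, 4.67 and 4.81 under IL-21, and 7.45, 6.28 and 4.34 in Media Control. Only replicate 1 of Media Control exceeded the background level, replicate 1 was the highest in 5 of the 6 groups, and all groups overlapped Media Control. The change with IL-2 was -1.89 (SE 0.66, adjusted p = 0.0692, and 0.0036 with the replicate block). Without replicate 3 of IL-2, IL-15 and Media Control it was -2.83 with IL-2 (adjusted p = 0.0024), -2.09 with IL-7 (0.0405), -1.97 with IL-4 (0.0166) and -1.77 with IL-21 (0.0353). That setting keeps replicate 3 of IL-4, IL-7 and IL-21. Ccr9 deviated from the group means by -0.67 in replicate 3 and by 0.74 in replicate 1. With replicate 3 left out of every group, only the change with IL-2 passed (-2.83, adjusted p = 0.0037). Of the 4 other Ccr9 probe sets, 1421920_a_at and 1421919_a_at shifted in the same direction with IL-2, by -0.98 and -0.70, and passed only with the block (adjusted p = 0.0187 and 0.0423).

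Ccr2, the CCL2 receptor known from inflammatory monocytes and effector T cells, gave different answers by probe set. The main probe set, 1460067_at, read 6.37, 7.09 and 6.82 with IL-21 and 6.07, 6.24 and 6.67 in Media Control, with a change of 0.43 (SE 0.23, adjusted p = 0.363). Its levels were 5.85 to 6.30 under IL-2, 5.37 to 6.10 under IL-4, 5.82 to 6.00 under IL-7 and 6.03 to 6.46 under IL-15, and IL-21 was the only group with arrays above background, 2 of 3. Probe set 1421186_at, by contrast, read 8.88, 9.44 and 8.73 under IL-21 and 5.55, 4.82 and 4.35 in Media Control. In the fit over all probe sets it rose by 4.11 with IL-21 (SE 0.26, 17.3-fold, adjusted p = 3.1e-07), with all 3 arrays above all of Media Control.

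The remaining Ccr2 probe sets were lower and moved the same way. With IL-21, 1421187_at read 7.15, 6.92 and 6.51, against 4.64, 4.05 and 3.70 in Media Control, a rise of 2.73 (adjusted p = 1.0e-05). With IL-21, 1421188_at read 5.56, 6.44 and 7.10, against 4.46, 3.89 and 4.27 in Media Control, a rise of 2.16 (adjusted p = 4.0e-04). The calls of all 3 with IL-21 held without any 1 array and on the values as deposited (the highest of the 3 adjusted p was 0.0140), and none of the 3 passed with another cytokine. These 3 were built on 1 sequence record and the main probe set on another, so the 3 are not independent of each other. IL-21 also exceeded each other cytokine in all 3, and in 1421186_at the differences, each of them minus IL-21, were -4.23 to -3.58. The 3 were singled out after their values were seen.

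**Figure D4:**
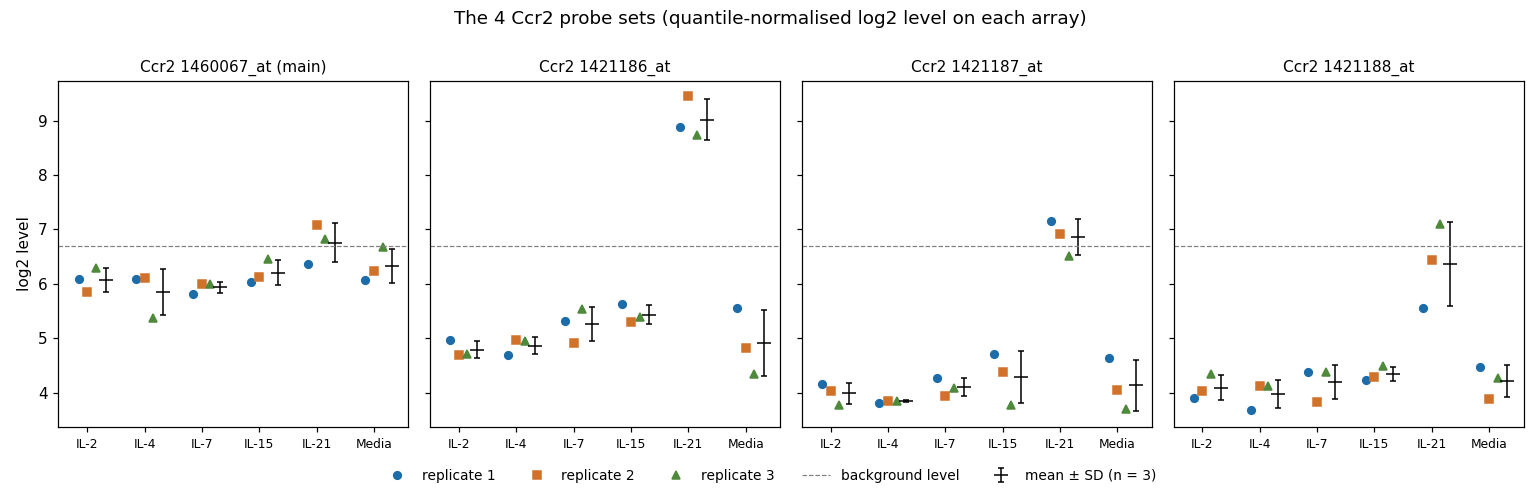
Normalised log2 level of the 4 Ccr2 probe sets on each array by group, on 1 shared axis; black bars are the mean and SD of 3 arrays and the dashed line is the background level of 6.70. IL-21 arrays stand apart in 1421186_at (8.73 to 9.44), 1421187_at and 1421188_at. In the main probe set 1460067_at (6.37 to 7.09) they overlap those of Media Control (6.07 to 6.67).

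Myeloid cells also express Ccr2. The summed log2 level of the 11 myeloid markers measured, of 12 listed, was 56.2 to 65.8 under IL-21, 55.8 to 64.8 under IL-15, 55.1 to 60.5 under IL-7, 55.1 to 59.4 under IL-4, 54.7 to 57.4 under IL-2 and 59.2 to 70.1 in Media Control. Within each replicate number the IL-21 array lay above the arrays of the other 4 cytokines and below that of Media Control. With IL-21 none of the 11 passed against Media Control, but 1 was higher and 2 were lower with the replicate block. Against the other cytokines none passed either, while with the block 5 were higher with IL-21 than with IL-2 and 1 was higher than with each of the other 3. Their part in the rise of the 3 Ccr2 probe sets was not tested. Csf1r and Lyz2 were among those above background in Media Control, while Itgam, Cd14 and Adgre1 lay below it in every group. With IL-2 1 of the 11 passed, Cd68, which fell by 1.45 (adjusted p = 0.0286), and not without IL-2 replicate 1 or 3 or Media Control replicate 2 (adjusted p up to 0.1498), and with the block 3 fell with IL-2, 3 with IL-4 and 4 with IL-7. With the block 30.6%, 25.8%, 16.3% and 21.1% of all genes passed against Media Control with IL-2, IL-4, IL-7 and IL-21. Between IL-21 and IL-2, IL-4, IL-7 and IL-15 the shares were 21.4%, 11.7%, 8.89% and 12.6%.

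Ccr8, the CCL1 receptor of type 2 and regulatory T cells, and Cx3cr1, the fractalkine receptor of long-lived effector CD8+ T cells, stayed below background on all 18 arrays. Ccr8 ranged over 3.94 to 5.29 and Cx3cr1 over 4.22 to 5.27. The change of Ccr8 with IL-21 was -0.48 (adjusted p = 0.364, and 0.0349 with the replicate block), and its other changes against Media Control were -0.26 to 0.16. Replicate 1 was the highest for Ccr8 in 5 of 6 groups. Cx3cr1 changed by -0.01 to 0.36, and no change against Media Control passed with or without the block. A second Cx3cr1 probe set, 1450020_at, also lay below background throughout, at 4.64 to 5.02.

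Pairs of cytokines were compared next, to ask which cytokines differ from each other in these receptors. Of 90 tests of 9 receptors over 10 pairs, 21 passed, 6 for Cxcr3, 6 for Cxcr6, 4 for Cxcr5, 4 for Ccr4 and 1 for Ccr2. Between IL-2 and IL-15, 4 of the 9 passed, against 8.60% of all genes, and between IL-2 and IL-21 there were 3, against 6.58%. IL-2 differed from IL-7 in 2 receptors, against 1.42% of all genes, and from IL-4 in 1, against 2.07%. IL-4 differed from IL-15 in 3, against 3.64%, from IL-21 in 2, against 3.81%, and from IL-7 in 2, against 1.34%. IL-15 and IL-21 differed in 3, against 3.54%, and IL-7 and IL-21 in 1, against 2.24%. Between IL-7 and IL-15 none passed, against 0.0110% of all genes. These comparisons share arrays with each other.

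Among main probe sets the widest gap was in Cxcr6, at 8.04, 7.11 and 9.01 with IL-2 and 12.01, 12.49 and 11.82 with IL-21, a difference of -4.06 for IL-2 minus IL-21 (SE 0.40, adjusted p = 1.9e-05). Cxcr6 also gave -3.05 for IL-2 minus IL-4, -2.50 for IL-2 minus IL-15 and -2.24 for IL-7 minus IL-21 (adjusted p = 5.5e-04, 0.0011 and 0.0047). For Ccr4, IL-2 lay above IL-21 by 2.02 and IL-4 above IL-21 by 1.99 (adjusted p = 4.3e-04 and 4.1e-04). Cxcr3 gave -1.49 for IL-2 minus IL-7, -2.02 for IL-2 minus IL-15 and -1.63 for IL-4 minus IL-15 (adjusted p = 0.0042, 1.2e-04 and 6.3e-04). Cxcr5 gave -2.17 for IL-4 minus IL-15 (adjusted p = 4.2e-04). These 10 calls held without any 1 array.

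With the replicate block 36 of the 90 passed, and the share over all genes rose as well. For IL-2 there were 3 receptors against IL-4, 3 against IL-7, 5 against IL-15 and 4 against IL-21, beside 10.6%, 11.1%, 22.4% and 21.4% of all genes. For IL-4 there were 5 against IL-7, 4 against IL-15 and 5 against IL-21, beside 5.18%, 14.1% and 11.7%. IL-7 and IL-21 differed in 3, beside 8.89%, IL-15 and IL-21 in 4, beside 12.6%, and IL-7 and IL-15 in none, beside 0.335%. Of the 15 added calls 4 were in Ccr4, with 1.11 for IL-2 minus IL-7 (adjusted p = 0.0663 without and 0.0024 with the block), 1.08 for IL-4 minus IL-7 (0.0874 and 0.0038), 0.92 for IL-7 minus IL-21 (0.139 and 0.0082) and 0.73 for IL-15 minus IL-21 (0.237 and 0.0244). The main Ccr2 probe set gave -0.68 for IL-2 minus IL-21 (0.0930 and 0.0361) and -0.82 for IL-7 minus IL-21 (0.0843 and 0.0277). Cxcr5 gave -1.001 for IL-4 minus IL-21 (0.0793 and 0.0247) and 0.94 for IL-2 minus IL-4 (0.139 and 0.0374). Ccr8 gave 0.64 for IL-4 minus IL-21 (0.274 and 0.0112), Ccr9 -1.56 for IL-2 minus IL-15 (0.202 and 0.0175) and Cxcr6 1.24 for IL-4 minus IL-7 (0.236 and 0.0315). The remaining 4 were those of Cxcr4 against IL-4.

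The other 11 calls without the block were lost without at least 1 array. IL-2 minus IL-15 in Ccr4 was 1.29 (adjusted p = 0.0091, and 0.0656 without IL-15 replicate 2), and IL-4 minus IL-15 in Ccr4 was 1.26 (0.0186, and up to 0.115 without IL-4 replicate 2 or 3 or IL-15 replicate 1 or 2). In Cxcr3, IL-2 minus IL-21 was -1.05 (0.0114, and up to 0.0774 without IL-2 replicate 2 or IL-21 replicate 2). IL-4 minus IL-7 in Cxcr3 was -1.10 (0.0268, and up to 0.176 without IL-4 replicate 2 or any IL-7 replicate), and IL-15 minus IL-21 was 0.97 (0.0280, and up to 0.159 without IL-15 replicate 1 or 2 or IL-21 replicate 1 or 3). In Cxcr5, IL-2 minus IL-15 was -1.23 (0.0150, and up to 0.0942 without IL-2 replicate 2 or IL-15 replicate 1 or 2). IL-4 minus IL-7 in Cxcr5 was -1.25 (0.0492, and up to 0.261 without any of the 6 arrays), and IL-15 minus IL-21 was 1.17 (0.0363, and up to 0.171 without IL-15 replicate 1 or 2 or IL-21 replicate 2 or 3). In Cxcr6, beside IL-2 minus IL-7 above, IL-15 minus IL-21 was -1.55 (0.0403, and up to 0.167 without any array but IL-15 replicate 3). IL-4 minus IL-21 in the main Ccr2 probe set was -0.90 (0.0336, and up to 0.192 without IL-4 replicate 3 or IL-21 replicate 2 or 3). All values in brackets are adjusted p from limma.

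**Figure D5:**
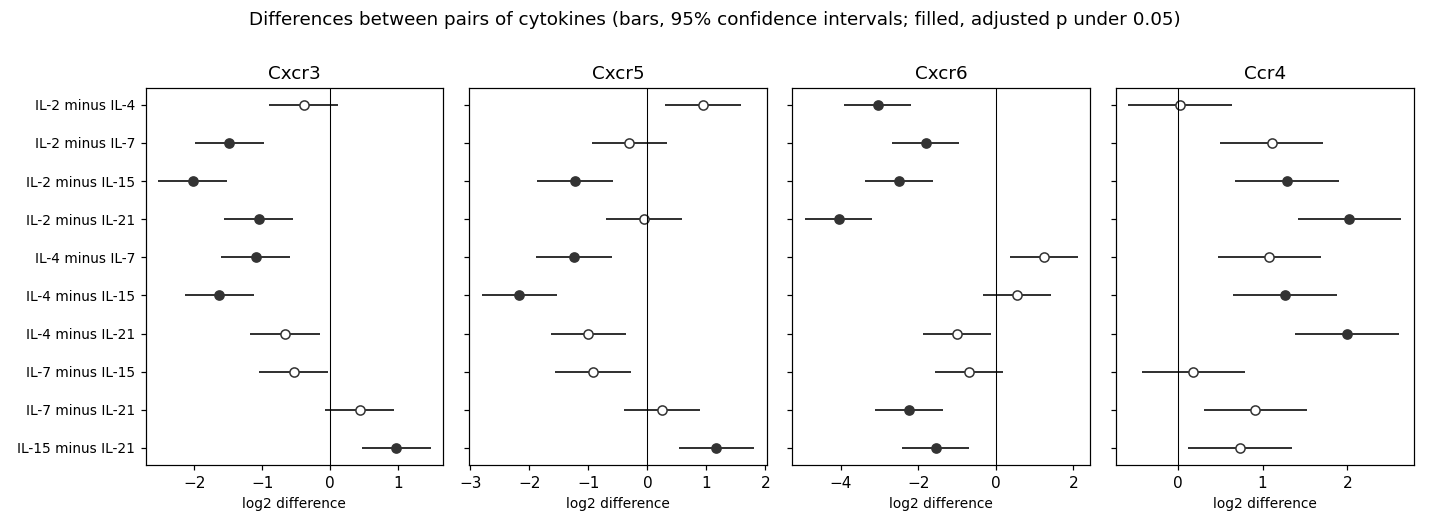
Log2 difference between each pair of cytokines for Cxcr3, Cxcr5, Cxcr6 and Ccr4, the first named minus the second, with 95% confidence intervals from limma (n = 3 arrays a group); filled points had an adjusted p under 0.05. IL-2 minus IL-21 in Cxcr6 lies farthest from 0, at -4.06, and IL-2 minus IL-4 in Ccr4 lies at 0.03; horizontal axes differ between panels.

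Other genes of the pathway were read from lists. Of 12 further chemokine receptors measured, of 13 listed, only Ccr7, which keeps T cells in lymph nodes, passed without the block, lower with IL-4, IL-2 and IL-21, each also without any 1 array. With the block Ccr7 also fell with IL-7 (-0.60, adjusted p = 0.0049), Ccr6 with IL-2 (-0.84, 0.0462) and IL-4 (-0.90, 0.0381), Ccr1 with IL-2 (-0.92, 0.0398) and Ccrl2 with IL-21 (-0.48, 0.0088), while Ackr4 rose with IL-21 (0.34, 0.0206). Of the 12, 2 had a mean above background, and Ccr6 and Ccr1 averaged below it in every group. Ccr7 averaged 10.28 ± 0.26 with IL-4 and 12.05 ± 0.29 in Media Control (SD, n = 3 each) and fell by 1.77 (adjusted p = 5.8e-04). On the values as deposited this fall with IL-4 did not pass (adjusted p = 0.412). None of 15 ligands of the 9 receptors passed in limma with any cytokine, while with the replicate block 2 were lower with IL-21, 2 with IL-7, 3 with IL-4 and 3 with IL-2. For these and the signalling genes below, 6.67%, 1.68%, 9.07% and 15.8% of all genes passed with IL-21, IL-7, IL-4 and IL-2. With the block the shares of all genes were 21.1%, 16.3%, 25.8% and 30.6%. Of 35 genes of receptor signalling measured, of 36 listed, 1 rose and 5 fell with IL-21, 1 fell with IL-7, 1 rose and 8 fell with IL-4, and 2 rose and 12 fell with IL-2. With the block 7 rose and 11 fell under IL-21, 3 rose and 11 fell under IL-7, 4 rose and 13 fell under IL-4, while 6 rose and 17 fell under IL-2. Their median change was -0.31 with IL-2 and -0.04 with IL-21, against 0.01 and -0.01 over all genes.

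Among the signalling genes, Rgs10, a GTPase activator that shortens G protein signals, averaged 10.23 ± 0.11 with IL-2 and 11.74 ± 0.22 in Media Control, and fell by 1.51 (adjusted p = 2.6e-06). Gpsm3, a G protein modulator of leukocytes, averaged 9.57 ± 0.06 with IL-2 and 10.78 ± 0.17 in Media Control, and fell by 1.21 (adjusted p = 5.3e-05). The G protein gamma subunit Gng2 rose by 1.36 with IL-21 (adjusted p = 0.0176), but not without IL-21 replicate 3 or Media Control replicate 1 or 2 (up to 0.0859). Rgs2 fell by 1.20 with IL-4 (adjusted p = 0.0382), a call lost without any of 5 arrays, all but Media Control replicate 1 (up to 0.158). On the values as deposited Rgs10 and Gpsm3 with IL-2 and Rgs2 with IL-4 did not pass (adjusted p = 0.226, 0.695 and 0.642). The SDs are over 3 arrays a group.

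Of 17 transcription factors tied to these receptors in the literature, 3 rose and 1 fell with IL-21, 1 rose and 1 fell with IL-7, 3 rose and 1 fell with IL-4, and 2 rose and 2 fell with IL-2. With the block 9 rose and 4 fell under IL-21, 2 rose and 4 fell under IL-7, 6 rose and 4 fell under IL-4, while 2 rose and 8 fell under IL-2. Of all genes 6.67%, 1.68%, 9.07% and 15.8% passed in the same order, and 21.1%, 16.3%, 25.8% and 30.6% with the block. Klf2, a factor for lymph node homing and egress receptors, averaged 7.08 ± 0.25 with IL-4 and 10.67 ± 0.64 in Media Control, and fell by 3.59 (adjusted p = 1.4e-04). Bcl6, the factor of follicular helper T cells, which carry Cxcr5, averaged 4.92 ± 0.54 with IL-2 and 7.37 ± 0.40 in Media Control, and fell by 2.46 (adjusted p = 3.8e-04). With IL-7 it fell by 1.66 (adjusted p = 0.0361), a call lost without any 1 of the 6 arrays compared (0.0515 to 0.191). With IL-4, under which Cxcr5 was lowest, the change of Bcl6 was -0.84 (adjusted p = 0.219, and 0.0453 with the block), and with IL-21, under which Cxcr5 also fell, it was 0.99 (0.158, and 0.0238 with the block). Prdm1, a factor of effector T cells, averaged 8.89 ± 0.70 with IL-21 and 5.18 ± 0.31 in Media Control, a rise of 3.70 (adjusted p = 4.4e-06). Eomes, a T-box factor, averaged 9.92 ± 0.19 with IL-4 and 7.90 ± 0.57 in Media Control, a rise of 2.02 (adjusted p = 0.0013). The calls of Klf2 and Eomes with IL-4, of Bcl6 with IL-2 and of Prdm1 with IL-21 held without any 1 array. On the values as deposited Bcl6 with IL-2 did not pass (adjusted p = 0.132). Eomes with IL-4 did not pass when replicate 1 was left out of every group (adjusted p = 0.0617).

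The genes most like each receptor over the 18 arrays were found by Pearson's r among 8864 genes with a mean above background, as a description with no test, since the arrays share groups, replicates and one normalisation. Cxcr3 was most like Gramd3, Dgka and Camk4 (r = 0.98, 0.96 and 0.96). Ccr4 was most like Ptgir, Tes and Rgs1 (r = 0.94, 0.92 and 0.91), and Cxcr5 most like C920006O11Rik, Nsmaf and Nrip1 (r = 0.94, 0.93 and 0.92). Cxcr6 was most like Chpt1, AW112010 and Atox1 (r = 0.90, 0.90 and 0.89). For Cxcr4 the nearest were Mavs, Tmem108 and Nrros (r = 0.83, 0.83 and 0.82), where r for Mavs was 0.73 once replicate means were removed. For the receptors mostly below background the values were similar, with Tuft1 and Gata3 nearest to Ccr8 (r = 0.92 and 0.85), Mir142 nearest to Ccr9 (0.91), Ssr1 to Cx3cr1 (0.88) and Hic1 to the main Ccr2 probe set (0.87).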

How the data were processed

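RNA of 18 samples was measured on Affymetrix 3' expression arrays of the mouse genome after 3' in vitro transcription labelling (MessageAmp Premier). The authors normalised the arrays by RMA in Affymetrix Expression Console 1.1, and the deposited values are log2 levels of 45101 probe sets. The genome build and the version of the annotation are not given in the sources used here. Because replicate 3 of IL-2, IL-15 and Media Control lay on a lower scale, all 18 columns were quantile-normalised again (limma 3.58.1, R 4.3.3). Of the probe sets, 34958 carry 1 gene symbol, 932 several and 9211 are not listed, and the last 2 kinds were left out. For each of 18194 genes the probe set of highest mean was kept, and no low values were filtered. The number of arrays limits the precision, with 12 residual degrees of freedom.

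Groups were fitted with lmFit and eBayes over all 18 arrays without a covariate, and two-sided p-values were adjusted by Benjamini-Hochberg over the genes of each comparison, 5 with Media Control and 10 between cytokines, at a threshold of 0.05. The background level is the 95th percentile of the means of 33 tissue genes, of 36 listed. Deviations from group means of arrays with the same replicate number correlated at 0.44 to 0.86 (45 pairs), against 0.38 at most for different numbers (90 pairs), so the numbers pair the samples, and the fit with the block is printed where it changes a call of a main probe set. The fit was tested on simulated data with independent errors and no replicate effect, so that test cannot speak for paired samples. Figures were drawn with matplotlib 3.10.9. Named genes were the 9 receptors, up to 4 called genes of largest change in each other list, and the 3 genes of highest correlation with each receptor among those above background. The receptors and lists were chosen with earlier results of these data known. Alternatives were the deposited scale, median centring, the block, leaving out arrays, fits of the compared arrays alone, a filter at background and a second probe set.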

Additional observations from a re-analysis of the deposited data

How the results depend on the processing

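The count of receptors called was 11 of 45 against Media Control and 21 of 90 between cytokines. Between cytokines it was 36 with the replicate block, 8 on the values as deposited and 12 among genes with a mean above background, and against Media Control 3 on the values as deposited and 5 among genes above background. Of the receptors called, that filter removes Ccr2, Ccr4 and Cxcr5. The counts were 11 and 19 with median centring, 11 and 17 on the deposited values with the block, 16 and 26 without the 3 lower arrays, 11 and 16 when only the compared arrays were fitted, and 12 and 25 with the second probe set. Leaving out 1 array, or 1 replicate number in every group, gave 6 to 13 and 5 to 24, with the low ends when replicate 1 or 2 was left out of every group, which leaves 2 arrays a group. The fit without the 3 lower arrays kept replicate 3 of IL-4, IL-7 and IL-21. The block took away no call that passed without it. On the deposited values the median change over all genes was 0.43 with IL-21, 0.41 with IL-7 and 0.43 with IL-4, under 0.01 with IL-2, and of the genes called 39 of 74 were higher with IL-2, 55 of 67 with IL-4 and 85 of 90 with IL-21, against 1425 of 2880, 724 of 1651 and 616 of 1214 after normalisation. No called change turned its sign under any alternative tried. Of changes that passed in no setting concerned, these turned: on the deposited values, with or without the block, IL-7 minus Media Control was 0.062 in Ccr2 and 0.14 in Ccr8, and IL-21 minus Media Control 0.19 in Cxcr4; with the second probe set, IL-7 was 0.35 and IL-15 0.53 in Ccr2, and IL-15 0.12 in Cx3cr1; without the 3 lower arrays, Ccr8 was 0.019 with IL-2 and 0.022 with IL-15. Leaving out arrays gave, against Media Control, -0.25 to 0.052 for IL-15 in Ccr2, -0.20 to 0.49 for IL-15 in Ccr4, -0.36 to 0.10 for IL-2, -0.027 to 0.33 for IL-4 and -0.26 to 0.10 for IL-15 in Ccr8, and -1.17 to 0.38 for IL-15 in Ccr9. In Cxcr4 it gave -0.25 to 0.63 for IL-2, -0.22 to 0.56 for IL-7, -0.064 to 0.33 for IL-15 and -0.66 to 0.048 for IL-21. In Cxcr6 it gave -0.23 to 0.26 for IL-15, and in Cx3cr1 -0.012 to 0.39 for IL-2 and -0.24 to 0.15 for IL-15. Except where the construction is named, the cause was not tested. Signal over background limits what can be said of Ccr8, Cx3cr1, Ccr9 and the main Ccr2 probe set. It also limits Ccr4, and Cxcr5 with IL-2, IL-4, IL-7 and IL-21. Every Media Control array lay below background in Ccr4 and in the 3 other Ccr2 probe sets. The sizes of the Ccr4 rises with IL-2 and IL-4, and of those 3 probe sets with IL-21, are therefore not exact.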
